A study of Mus musculus with 185 samples.

Results

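The Toll-like receptors (TLRs) and their adaptors were followed in epidermal Langerhans cells (LCs) through 10 genes of the 45661 listed in the count table. They were the receptor genes Tlr1, Tlr2, Tlr4, Tlr3, Tlr7, Tlr9 and Tlr13, the co-receptor gene Cd14, and the adaptor genes Myd88 and Ticam1, each found by its symbol. The cells came from bone marrow chimeras (BMC) in which lethally irradiated CD45.1 Cd207DTR hosts on the B6 background had received wild-type CD45.2 bone marrow. The hosts were then given a low dose of diphtheria toxin (DT), 5 ng per gram of body weight, and LCs were sorted from the epidermis 2 months later. Host CD45.1 cells are eLCs and carry the DT receptor in the Cd207 locus, and donor CD45.2 cells are moLCs and do not. All cells came from mice given the toxin, and no LC of an untreated mouse was among them. The hosts were irradiated before the marrow was given, so eLCs belong to the irradiated host and moLCs to marrow that was not, and direct irradiation and origin cannot be told apart. The age, sex and number of mice are not in the labels, so an origin counts as 1 sample here, without tests or p-values.

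TLRs are membrane proteins that bind conserved parts of microbes through an ectodomain of leucine-rich repeats. TLR1, TLR2, TLR4, TLR5 and TLR6 sit at the cell surface and sense lipopeptides, lipopolysaccharide and flagellin, whereas TLR3, TLR7, TLR8, TLR9 and TLR13 sense nucleic acids in endosomes. MyD88 carries the signal of nearly all of them to IRAK kinases and NF-κB, and TRIF, the product of Ticam1, carries that of TLR3 and of internalised TLR4 towards interferon genes. LCs lie among keratinocytes beneath the cornified layer, where they meet the microbes of the skin surface.

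Reads of all cells of an origin were added up and given per 1000000 reads on genes (CPM), and the share of cells with at least 1 read is given beside each level. With cells over 5% mitochondrial reads left out (3 moLCs of plate 2), 182 cells remained. The moLCs were 67 cells on plate 1 and 36 on plate 2, and the 79 eLCs were 29 cells on plate 1 and 50 on plate 2. Each kept cell had between 432614 and 4525429 reads on genes. Intervals are at 95%, exact Poisson for sums and exact Clopper-Pearson for shares, and cover counting error only. The reads carry no molecular identifiers, so PCR copies are counted. Sequencing was paired-end, and every Ticam1 count in a cell was even, so both reads of a pair may have been counted. Intervals on sums and ratios would then be too narrow even for counting error. Among the LC markers, Cd207 was read in 181 of the 182 cells and Epcam in 180. The 10 keratinocyte markers summed to 27.9 CPM in moLCs against 5.40 CPM in eLCs, were read in 28 moLCs and 11 eLCs, and had no read for Krt15, Krt1 and Dsp. The 10 monocyte markers summed to 76.3 CPM in moLCs against 33.9 CPM in eLCs, and Lyz2 alone made up 76 CPM and 33.9 CPM of this. Among the 8 T cell markers, Cd3e, Trdc and Thy1 had no read, and Cd2 had reads in 11.7% of moLCs and 11.4% of eLCs. Cd3d, Cd3g, Cd7 and Lck had reads too. The T cell markers summed to 21.2 CPM in moLCs against 26.6 CPM in eLCs, and were read in 22 moLCs and 23 eLCs. The 6 melanocyte markers summed to 8.22 CPM and 8.43 CPM, and were read in 23 moLCs and 19 eLCs. Dct, Mlana, Tyr and Tyrp1 had no read. The 6 dermal DC1 markers, among them Irf8 and Cadm1, summed to 168 CPM in moLCs against 198 CPM in eLCs, and were read in 78 moLCs and 62 eLCs. Of the 6, only 2 were read in 25% or more of the moLCs or of the eLCs. Most cells of both origins had a read of this list, so a read or a higher sum does not by itself mark a DC1. The part of these marker differences in the levels below was not tested, except where values without the cells with a keratinocyte marker read are given.

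Of these receptor genes, 1 pair shares enough coding sequence to bear on its counts, and the longest run common to Tlr1 and Tlr6 is shown for that reason. It is 229 bases long and lies in the coding sequence on the minus strand of chromosome 5 in GRCm38, in Tlr1 at chr5:64925537-64925765 and in Tlr6 at chr5:64953828-64954056. Of the 3307 stretches of 75 bases, the length of a read, in the transcripts of Tlr1, 10.6% were also found in another gene, and of the 3677 in Tlr6, 9.25%.
Tlr1 and Tlr6 shared run: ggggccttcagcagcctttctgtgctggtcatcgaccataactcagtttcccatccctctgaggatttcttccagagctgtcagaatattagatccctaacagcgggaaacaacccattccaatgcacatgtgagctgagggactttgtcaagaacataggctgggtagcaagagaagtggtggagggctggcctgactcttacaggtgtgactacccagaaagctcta
Tlr1 and Tlr6 share 340 stretches of 75 bases, more than this run holds, so other shared sequence lies outside it. A read that falls wholly inside shared sequence could come from either gene, so low counts of the pair are uncertain. No 75-base stretch of Tlr2, Tlr4, Tlr7, Tlr9, Tlr13, Cd14 or Ticam1 was found in another gene. In Tlr3, 4.28% of the stretches were shared with the overlapping Gm45542 on the other strand, and in Myd88, 5.68% with the overlapping Acaa1a on the other strand. The library kit does not mark strand, so reads from such overlaps cannot be told apart.

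Among the 10 genes, Tlr2, Cd14 and Myd88 had reads in 25% or more of the moLCs or of the eLCs, a mark reached by 14.3% of all listed genes. Ticam1 had reads in 17.5% of moLCs against 11.4% of eLCs. Tlr1, Tlr4 and Tlr9 were each read in under 5% of the cells of either origin, and Tlr3, Tlr7 and Tlr13 had no read in any kept cell.

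**Figure D1:**
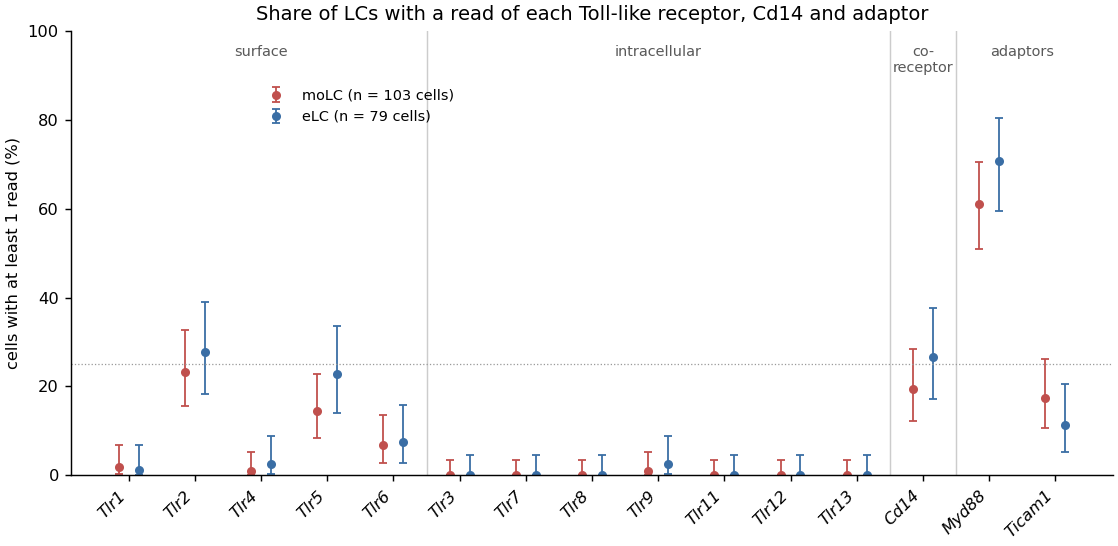
Share of cells with at least 1 read (%, vertical axis) for the 12 Tlr genes, Cd14, Myd88 and Ticam1, in moLCs (red) and eLCs (blue), with 95% Clopper-Pearson intervals and a dotted line at 25%. Myd88 stands highest with 61.2% and 70.9%, Tlr2, Tlr5 and Cd14 lie between 14.6% and 27.8%, and Tlr3, Tlr7, Tlr8, Tlr11, Tlr12 and Tlr13 are at 0.

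Tlr2, which pairs with TLR1 or TLR6 to bind bacterial lipopeptides, was the receptor with the most reads. It lies at chr3:83836272-83841767 on the minus strand. Tlr2 reached 34.3 CPM (33.6 to 35) in moLCs and 34.8 CPM (34 to 35.6) in eLCs. The reads came from 24 moLCs, 23.3% of them (15.5 to 32.7%), and from 22 eLCs, 27.8% (18.3 to 39.1%). The share intervals of the origins overlapped, and the lowest and the median moLC and eLC were at 0 CPM. Among the cells with a Tlr2 read, moLCs ran from 0.598 to 923 CPM with a median of 299 reads, and eLCs from 6.44 to 374 CPM with a median of 298 reads. Most cells thus had no Tlr2 read, while the cells with one spread over a wide range in both origins. The log2 ratio of moLCs over eLCs for Tlr2 was -0.02 (-0.06 to 0.02) in the pooled cells, where it turned to 0.08 with TMM factors, and was -0.09 on plate 1 and -0.74 on plate 2. Plate 2 held only 6 moLCs with a Tlr2 read among 36, at 16 CPM, and 13 eLCs among 50, at 26.7 CPM, whereas on plate 1 moLCs had 44.1 CPM and eLCs 46.9 CPM. Most moLCs but a minority of eLCs were on plate 1, where Tlr2 was higher. The pooled ratio thus lay above both plate values and does not show equal levels within plates. With each cell left out in turn, the Tlr2 ratio ran from -0.45 to 0.29, so its sign rested on single cells, as it did within plate 1 (-0.61 to 0.53) but not within plate 2 (-1.14 to -0.34). A single moLC of plate 1 held 26.2% of the Tlr2 reads of moLCs. In cells with a Tlr2 read, a monocyte marker was read in 23 of 46, against 42 of 136 other cells.

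**Figure D2:**
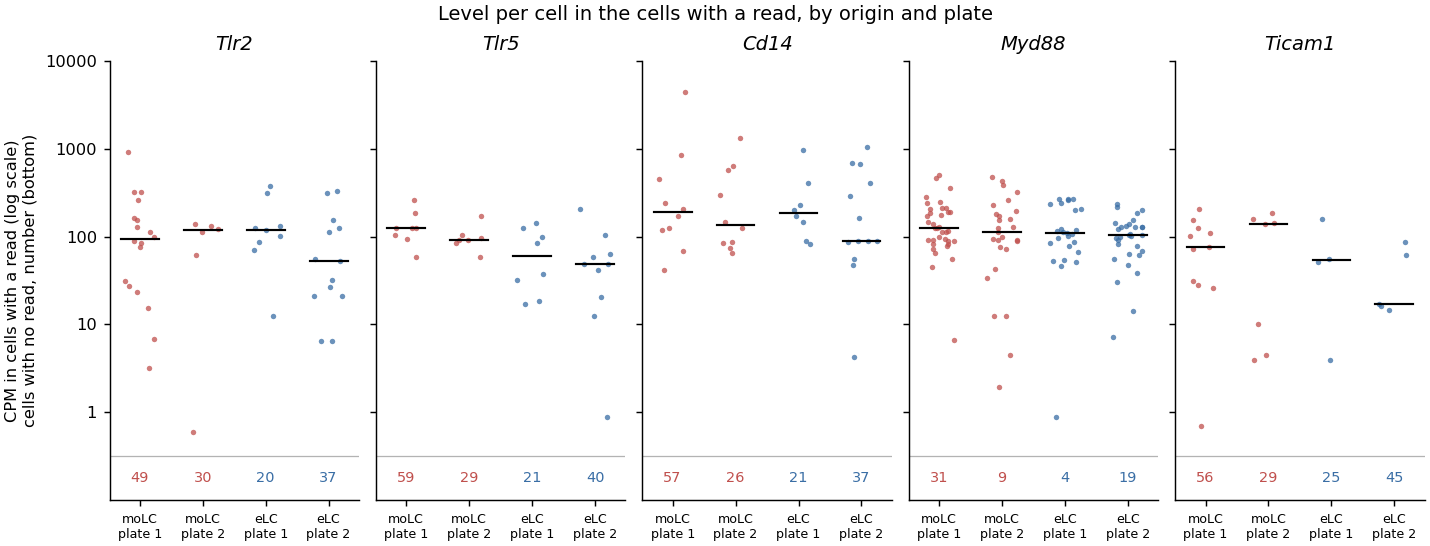
CPM of Tlr2, Tlr5, Cd14, Myd88 and Ticam1 (vertical axis, log scale) in each cell with a read, for moLCs (red) and eLCs (blue) of plate 1 and plate 2; black lines are medians and the numbers at the bottom count cells with no read. Points of the origins overlap in every panel, and Myd88 is the gene with the fewest cells at 0 in each set.

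Tlr1, the partner of TLR2 for triacylated lipopeptides, was read in 2 moLCs and 1 eLC, with 5 and 2 reads in all. These cells held 2 or 3 Tlr1 reads each, and each of them also held Tlr6 reads: 386 and 459 in the moLCs and 180 in the eLC. Of the 179 cells without a Tlr1 read, 10 had a Tlr6 read. Whether the few Tlr1 reads came from Tlr6 through shared sequence, in the printed run or outside it, cannot be told apart in these counts. Tlr1 itself lies at chr5:64924679-64933563 and Tlr6 at chr5:64952031-64960097, both on the minus strand.

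Tlr4, the lipopolysaccharide receptor, was read in 1 moLC, with 244 reads (90.8 CPM in that cell), and in 2 eLCs, with 370 reads (96.8 CPM) and 2 reads. The summed level of Tlr4 was 0.812 CPM in moLCs against 1.71 CPM in eLCs, and each value rests on 1 cell of plate 1. MD-2, the product of Ly96 that binds lipopolysaccharide for TLR4, had a read in 2 of these 3 cells. Ly96 was read more widely than Tlr4 itself, in 17.5% of moLCs at 11.2 CPM and in 21.5% of eLCs at 7.36 CPM.

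Tlr9, the endosomal receptor of unmethylated CpG DNA, was read in 1 moLC with 9 reads and in 2 eLCs with 4 and 268 reads. That single eLC of plate 1 held 98.5% of the Tlr9 reads of eLCs, and the log2 ratio of Tlr9 changed from -5.38 to 0.69 without it. Within plate 1 no moLC, and within plate 2 no eLC, had a Tlr9 read. The 2 eLCs with Tlr9 reads also had Tlr2 and Myd88 reads, and none of the 3 cells had a read of Unc93b1, the chaperone that takes nucleic acid receptors to endosomes. Unc93b1 was read in 3 moLCs and 1 eLC in all.

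Tlr3, the receptor of double-stranded RNA, had 0 reads in both origins. Tlr7, which senses single-stranded RNA, and Tlr13, which senses bacterial ribosomal RNA, had 0 reads as well. Taking 3 counts as the limit that a count of 0 allows, the share of cells with a read was up to 2.91% in moLCs and 3.80% in eLCs for each of them, and 3 reads would have been 0.00999 CPM and 0.0138 CPM. The upper bounds of the Clopper-Pearson intervals were 3.52% and 4.56%. These receptors were not detected at this depth, and the limits bound cells with a read, not cells with the protein.

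Tlr5, the flagellin receptor, and Tlr6, the partner of TLR2 for diacylated lipopeptides, were the other Tlr genes with reads, and Tlr8, Tlr11 and Tlr12 had none. Tlr5 reached 16.7 CPM in 15 moLCs (14.6%, 8.39 to 22.9%) and 18.1 CPM in 18 eLCs (22.8%, 14.1 to 33.6%). Its log2 ratio was -0.49 within plate 1 and 0.30 within plate 2, so the direction for Tlr5 differed between plates, and without 1 moLC the plate 2 value was -0.13. Tlr6 reached 9.30 CPM in 7 moLCs and 2.24 CPM in 6 eLCs, which is 2.06 (1.92 to 2.20) as a log2 ratio, with 1.21 within plate 1 and 3.03 within plate 2. With each cell left out in turn it stayed above 0, from 0.71 to 2.34 within plate 1 and from 2.28 to 6.62 within plate 2. The shares of cells with a Tlr6 read were close, 6.80% and 7.59%, and the difference lay in the level within those cells. The 7 moLCs held 300 to 545 reads of Tlr6 each (99.1 to 191 CPM), and the 6 eLCs held 6 to 180 reads (1.77 to 79.3 CPM), so the cells with a read did not overlap between origins. Of the 1157 genes read in 5 to 10 cells of each origin, a range set around Tlr6 after its values were seen, 0.0864% (1 gene, Tlr6 itself) had no such overlap. Cells of 1 origin are not replicates of it, and the Tlr6 reads came from 13 cells in all. In cells with a Tlr6 read, a monocyte marker was read in 8 of 13, against 57 of 169 other cells, a keratinocyte marker in 2 of 13, against 37 of 169, and a dermal DC1 marker in 12 of 13, against 128 of 169. The median sum of the dermal DC1 markers was 194 CPM in the cells with a Tlr6 read and 108 CPM in the others.

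Counted over all 12 Tlr genes, 43 moLCs (41.7%, 32.1 to 51.9%) and 41 eLCs (51.9%, 40.4 to 63.3%) had a read of at least 1. For thinning, only the 96 moLCs and 67 eLCs with at least 2052512 reads were kept, each reduced to that depth. The shares were then 42.7% and 55.2%, so they reflect the smaller set of cells as well as the depth. Over the 7 Tlr genes of the list alone, the shares were 26.2% for moLCs and 30.4% for eLCs, or 28.1% and 32.8% after thinning. Surface receptors made up nearly all of this. A surface Tlr gene was read in 83 of the 182 cells and a gene of the 5 nucleic acid receptors in 3. Most of the positive cells had a single Tlr gene: 36 moLCs and 32 eLCs had 1, 7 moLCs and 8 eLCs had 2, and 1 eLC had 3. Tlr2 and Tlr5 were read together in 3 cells, 6.52% of the 46 cells with a Tlr2 read, while 30 of the 136 cells without one (22.1%) had a Tlr5 read. A read of Tlr1 or Tlr6, the partners of TLR2, was found in 0 of the 24 moLCs and 2 of the 22 eLCs with a Tlr2 read.

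**Figure D3:**
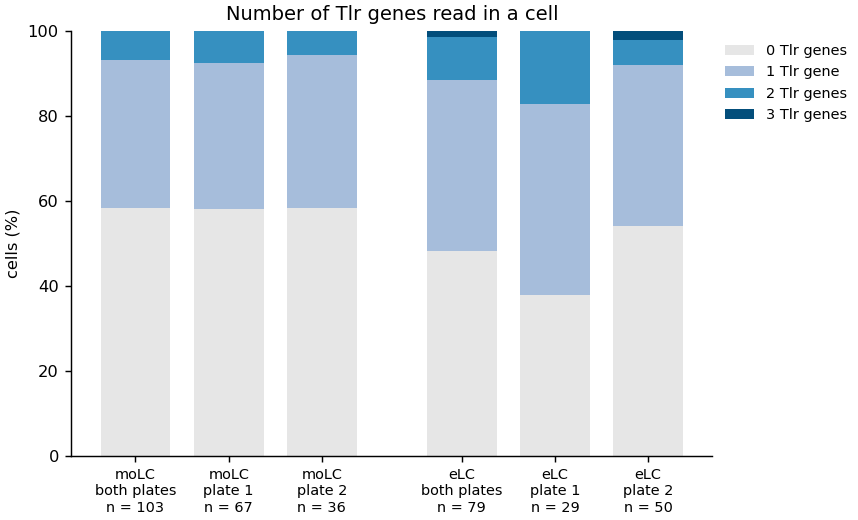
Share of cells (%, vertical axis) by the number of Tlr genes with a read, from 0 to 3 of the 12, for moLCs and eLCs in both plates and in each plate. In both plates together 58.3% of moLCs and 48.1% of eLCs had no Tlr read, and within plate 1 and plate 2 the eLC shares were 37.9% and 54%.

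Cd14, the co-receptor that passes lipopolysaccharide and lipopeptides to TLR4 and TLR2, lies on chromosome 18. It was read in 20 moLCs, 19.4% (12.3 to 28.4%), at 87.9 CPM (86.8 to 88.9), and in 21 eLCs, 26.6% (17.3 to 37.7%), at 79.3 CPM (78.1 to 80.5). The share intervals overlapped between origins and the median cell of each was at 0 CPM. Cells with a Cd14 read ran from 41.1 to 4495 CPM in moLCs, with a median of 159 CPM, and from 4.29 to 1046 CPM in eLCs, with a median of 161 CPM. By plate, Cd14 was read in 10 of 67 moLCs (14.9%) against 8 of 29 eLCs (27.6%) on plate 1, and in 10 of 36 (27.8%) against 13 of 50 (26%) on plate 2. The lower share of moLCs therefore came from plate 1. The log2 ratio of Cd14 was 0.15 (0.12 to 0.18), with 0.15 within plate 1 and 0.18 within plate 2. A single moLC of plate 1 held 37.6% of the Cd14 reads of moLCs, and without it the ratio was -0.52, or -1.12 within plate 1. Without 1 moLC of plate 2 the ratio within that plate was -0.56. Among the 75 moLCs and 68 eLCs with no keratinocyte marker read the Cd14 ratio was -0.77, with -1.13 within plate 1 and -0.51 within plate 2, so its direction depended on these cells too. Of the 41 cells with a Cd14 read, 14 had a Tlr2 read, 1 had a Tlr4 read and 11 had a Ly96 read. In moLCs, 14 of the 43 cells with a read of any Tlr gene had Cd14 (32.6%, 19.1 to 48.5%), against 6 of 60 without (3.76 to 20.5%), and in eLCs 11 of 41 (26.8%) against 10 of 38 (26.3%). The moLC intervals overlapped slightly, and the difference between origins was not tested.

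Myd88, the adaptor of nearly all TLRs and of the interleukin-1 receptors, was the most widely read of the 10 genes. It was read in 63 moLCs, or 61.2% (51.1 to 70.6%), and in 56 eLCs, or 70.9% (59.6 to 80.6%). Its summed level was 98 CPM (96.9 to 99.1) in moLCs and 86.2 CPM (85 to 87.5) in eLCs. The median cell had 72.8 CPM of Myd88 in moLCs and 79.1 CPM in eLCs, the lowest cell 0 CPM in both, and the highest 501 CPM and 268 CPM. The origins overlapped over most of this range. The log2 ratio of Myd88 was 0.18 (0.16 to 0.21), but -0.35 within plate 1, from 87 CPM against 111 CPM, and 0.78 within plate 2, from 119 CPM against 69.4 CPM. In plate 1, Myd88 was read in 53.7% of moLCs (41.1 to 66%) but 86.2% of eLCs (68.3 to 96.1%), intervals that did not overlap, and in plate 2 in 75% and 62%, intervals that did. The direction between origins thus turned from one plate to the other, and the pooled value averages them. Myd88 lies at chr9:119335934-119341411 on the minus strand, and its overlapping neighbour Acaa1a had a read in 38 of the 119 cells with a Myd88 read and none in the other 81. In cells with a Myd88 read, a dermal DC1 marker was read in 97 of 119, against 43 of 63 other cells, with median sums of 133 CPM and 84.9 CPM.

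Ticam1, which encodes the adaptor TRIF, lies at chr17:56269319-56276786 on the minus strand and had the widest gap between origins among the 4 members with reads in over 10% of cells. It was read in 18 moLCs, 17.5% (10.7 to 26.2%), at 17.3 CPM (16.9 to 17.8), and in 9 eLCs, 11.4% (5.34 to 20.5%), at 5.89 CPM (5.57 to 6.22). Cells with a Ticam1 read ran from 0.689 to 209 CPM in moLCs, with a median of 89.4 CPM, and from 3.88 to 158 CPM in eLCs, with a median of 51.8 CPM. The cells of the origins overlapped, as did the intervals of the shares. The log2 ratio of Ticam1 was 1.56 (1.47 to 1.65), with 0.83 within plate 1, from 17.5 CPM against 9.83 CPM, and 2.40 within plate 2, from 17 CPM against 3.22 CPM. It ran from 1.33 to 2.24 with each cell left out in turn, from 0.47 to 2.005 within plate 1 and from 1.98 to 3.29 within plate 2, and was 3.01 among the cells with no keratinocyte marker read. A single eLC of plate 1 held 38.5% of the Ticam1 reads of eLCs. In cells with a Ticam1 read, a keratinocyte marker was read in 7 of 27, against 32 of 155 other cells, a monocyte marker in 12 of 27, against 53 of 155, and a dermal DC1 marker in 24 of 27, against 116 of 155.

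A size rule was applied to all genes: reads in 25% or more of the moLCs or of the eLCs, with levels 2-fold or further apart, the same way round, in the pooled cells and in either plate. It was met by 132 of 6522 genes, 2.02%, of which 53 were higher in moLCs (0.813%) and 79 in eLCs (1.21%). Of the 10 genes, 3 could be examined by it and 0 met it, which says little at a share of 2.02% over all genes. Ticam1 fell short of the rule both in its share of cells and in its ratio within plate 1. The 3 that could be examined had a median log2 ratio of 0.15, beside -0.10 over all 6522 genes.

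**Figure D4:**
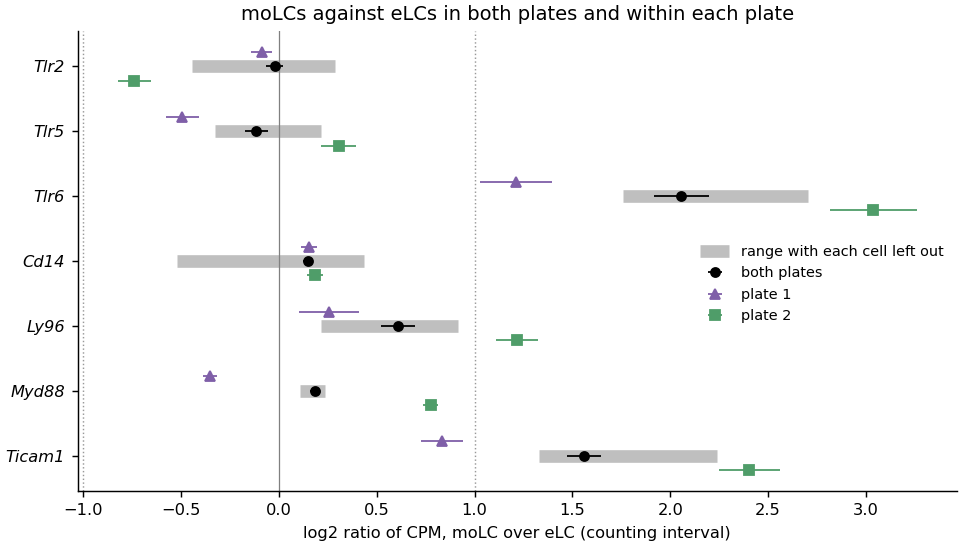
Log2 ratio of CPM in moLCs over eLCs (horizontal axis) for Tlr2, Tlr5, Tlr6, Cd14, Ly96, Myd88 and Ticam1 in both plates (black), plate 1 (purple) and plate 2 (green), with 95% counting intervals; grey bars span the pooled ratio with each cell left out and dotted lines mark 2-fold. Tlr5 and Myd88 change sign between plates, and Tlr6 and Ticam1 lie above 0 in both.

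Per kilobase of exon, which allows levels of different genes to be compared, Cd14 stood first with 50.7 CPM per kb in moLCs and 45.8 in eLCs. Without the moLC that held most Cd14 reads, Cd14 was at 31.9 CPM per kb in moLCs. Myd88 had 38 and 33.5 CPM per kb, above that value, so the order of this pair in moLCs rested on 1 cell. Next came Tlr2 with 11.4 and 11.5. Over the origins and plates, Cd14 ranged from 44.6 to 53 CPM per kb and Myd88 from 26.9 to 46.1, so this pair overlapped. Ticam1 had 5.80 and 1.97 CPM per kb and Tlr5 had 3.48 and 3.77. The range of Tlr2 over origins and plates, 5.29 to 15.5 CPM per kb, touched that of Ticam1, 1.08 to 5.85, which in turn enclosed that of Tlr5, 3.15 to 4.44. Tlr4, Tlr9 and Tlr1 lay below, at 0.214, 0.156 and 0.00404 CPM per kb over both origins.

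Receptors and adaptors were set side by side in the same cells. Myd88 was read in 53 of the 84 cells with a read of any Tlr gene (63.1%) and in 66 of the 98 without (67.3%), and in 30 of 46 cells with a Tlr2 read (65.2%) and 89 of 136 without (65.4%). Reads of a receptor and of Myd88 therefore fell in the same cells about as often as in other cells. With Cd14 the counts were further apart: 33 of 41 cells with a Cd14 read had Myd88 (80.5%, 65.1 to 91.2%), against 86 of 141 without (52.4 to 69.1%). The chemokine receptor gene Ccr7 was read in 40 moLCs and 31 eLCs. Tlr2 was read in 27.5% of the moLCs with a Ccr7 read and 20.6% of those without, but in 16.1% and 35.4% of eLCs. Cd14 was read in 8 of 40 moLCs with a Ccr7 read and 12 of 63 without, and in 41.9% and 16.7% of eLCs. Myd88 was read in 60% and 61.9% of moLCs and in 71% and 70.8% of eLCs. The intervals of cells with and without a Ccr7 read overlapped for each gene in each origin, and the difference between origins was not tested.

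Across the 182 cells, the genes whose CPM followed a member most closely were sought among those with reads in 25% or more of them. For Cd14 they were Txndc9 (Spearman's rho 0.37, with 0.38 within plate 1 and 0.39 within plate 2) and Arf3, which encodes a small GTPase (0.35, with 0.36 and 0.36). The median over 5988 genes was 0.03. For Tlr2 and Myd88, none of the 3 genes with the highest rho over all cells reached 0.3 within both plates. The highest values over all cells were 0.29 with Ankrd44 for Tlr2 and 0.30 with Creb5 for Myd88. Genes below the first 3 were not examined within plates. The points of such a correlation share plates and differ in depth, and many are at 0, so the values only describe these cells.

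Genes that act around the receptors or downstream of them ranged from widely read to rarely read. Of 49 genes in 7 lists of signalling, traffic and control, 48 had a read in some cell, against 17821 of all 45661 listed genes. Of the 49, 29 could be examined by the size rule, against 14.3% of all listed genes, with a median log2 ratio of 0.05. The rule was met by 0 of the 29, against 2.02% of all genes examined, a share so low that 0 of 29 says little. In the list of co-receptors and ligand delivery, Ly96 and the MD-1 gene Ly86 were read in 19.2% and 10.4% of all cells, and Lbp, for the serum protein that binds lipopolysaccharide, had no read. Hsp90b1, the chaperone gp96 that folds TLRs, was read in 98.4% of cells, and Cnpy3, its TLR-specific partner, in 67%. Among nucleases that prepare ligands in endosomes, Rnaset2a and Rnaset2b were read in 62.1% and 51.6%, and since these are near-identical copies their counts are uncertain. Of the other adaptors, Pik3ap1, which links TLRs to phosphoinositide 3-kinase, was read in 91 of the 182 cells, and Tirap, the bridge from TLR2 and TLR4 to MyD88, in 3.30%.

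Kinases and ubiquitin enzymes ranged widely. The most widely read were Ube2n, which builds K63-linked ubiquitin chains, in 97.3% of cells and Ikbkb, the IκB kinase subunit, in 95.6%. Irak4, the kinase that MyD88 recruits first, was read in 44% and the ubiquitin ligase gene Traf6 in 43.4%, and Ikbke was the least read, in 1.10%. Of the 18 genes of that list, 14 could be examined by the size rule, against 14.3% of all listed genes, with a median log2 ratio of -0.06. Of these 0 met it, against 2.02% of all genes examined. Irf5, the interferon regulatory factor that acts with MyD88, was read in 93.2% of moLCs at 433 CPM and in 98.7% of eLCs at 389 CPM. Irf3, which acts after TRIF, was read in 54.4% at 58.7 CPM and in 64.6% at 69.9 CPM. The inhibitors Tnip1, a partner of A20, and Cyld, a deubiquitinase, were read in 96.7% and 87.4% of all cells.

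**Figure D5:**
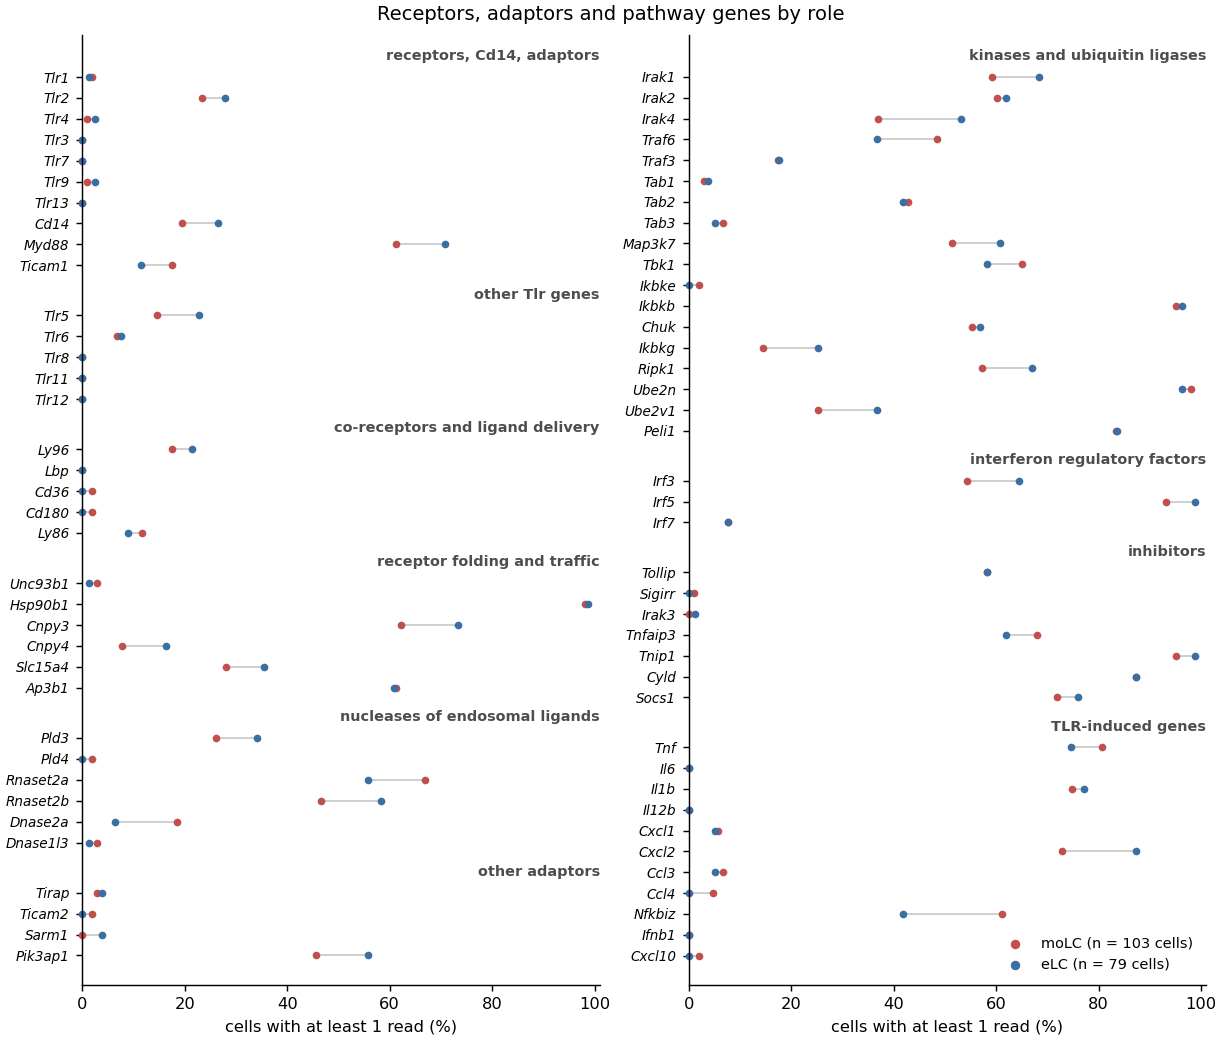
Share of cells with at least 1 read (%, horizontal axes) for receptors, adaptors and pathway genes, in rows grouped by role, in moLCs (red) and eLCs (blue); lines join the origins. Intracellular Tlr genes and Unc93b1 lie near 0, while Hsp90b1, Ikbkb, Ube2n, Irf5 and Tnip1 lie above 90%.

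Of 11 genes that TLR signals induce, 4 could be examined by the size rule, against 14.3% of all listed genes. Of these 1 met it, against 0.813% of all genes in that direction. It was Nfkbiz, the gene of the nuclear inhibitor IκBζ that is needed for secondary responses. Nfkbiz reached 130 CPM (129 to 131) in moLCs and 47.3 CPM (46.4 to 48.2) in eLCs. It was read in 63 moLCs, or 61.2% (51.1 to 70.6%), and in 33 eLCs, or 41.8% (30.8 to 53.4%). After thinning, which left out the cells of lower depth, Nfkbiz was read in 61.5% and 34.3%. Its log2 ratio was 1.46, with 1.55 within plate 1 and 1.41 within plate 2, and it stayed between 1.33 and 1.64 with each cell left out in turn. Within plate 2 it fell to 0.996 without 1 moLC, just short of the rule. Among cells with no keratinocyte marker read the Nfkbiz ratio was 1.35. The other 3 that could be examined were Tnf, with a log2 ratio of 0.72 (1.26 within plate 1 and 0.33 within plate 2), Il1b with 0.19 (0.93 and -0.11) and Cxcl2 with -0.20 (1.44 and -0.66). Reads of Cxcl2 were found in 72.8% of the moLCs against 87.3% of the eLCs, and the direction of Il1b and Cxcl2 differed between plates. Without 1 eLC the Cxcl2 ratio was 0.12, and without 1 moLC that of Tnf within plate 2 was -0.26. The median of the 4 was 0.46, with 1.35 within plate 1 and 0.11 within plate 2. Of the rest of the list, Il6, Il12b and Ifnb1 had no read in any cell.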

How the data were processed

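Single LCs were sorted by index from the epidermis, amplified with a Smart-Seq kit, sequenced paired-end and, per the labels, aligned to mm10 with STAR. The counting tool and annotation are not given in the sources used here. The authors deposited unnormalized read counts for every gene in every cell. In 8 cells the deposited columns hold 9 values that are not whole and were treated as estimated counts and rounded. All columns were matched to cells by label, and cells were grouped by the labelled origin and plate. The methods' cap of 5% mitochondrial reads was applied. No doublet caller was run.

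For a ratio, 3 reads over the group stood in for an origin with none, and no ratio is given where both had 3 or fewer. Intervals on ratios are binomial. The members, lists and rules were chosen with earlier results of these data known. The text names all members, every other Tlr gene, the pathway genes past the size rule or otherwise the 2 most widely read per list, and the closest correlates. Genes at 0 in a list, Unc93b1 beside Tlr9, Irak4, Traf6, Ikbke, Tnf, Il1b, Cxcl2, Ccr7 and the RNA and DNA sensors of the closing section were added after values were seen. Positions and shared stretches come from GENCODE M21 on GRCm38. The size rule was tested on simulated data. Alternatives covered plates, cell filters, thinning, read minimum, cell weights, edgeR 4.0.16 TMM factors, totals, thresholds and Seurat's LogNormalize scale. Python 3.11.15, scipy 1.17.1 and R 4.3.3 were used.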

Additional observations from a re-analysis of the deposited data

Results flagged for a closer look

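The 3 cells left out for more than 5% mitochondrial reads, all moLCs of plate 2, held reads of members and enter no comparison. Myd88 had 628 reads in the 3 cells together, with a read in each, which is 364 CPM. Cd14 had 442 reads, all in 1 of the cells, which is 256 CPM. Both exceed the limit of 3 reads that a count of 0 allows. Tlr1, Tlr2, Tlr3, Tlr4, Tlr7, Tlr9 and Tlr13 had no read in these cells, and Ticam1 had 2 reads.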

How the results depend on the processing

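Under every alternative run, 3 members had reads in 25% or more of the moLCs or of the eLCs and 0 passed the size rule. The same held with each cell left out in turn. It also held in the cells with no keratinocyte marker read, an alternative chosen after seeing the data. Over all genes, more passed the rule in each plate alone and at the lower fold limit than in the main setting, where 2.02% passed. With so few members examined, the repeated 0 says little about them. The share of cells with a read of a member Tlr gene ran from 19.4% (plate 2 alone) to 29.9% (plate 1 alone) in moLCs and from 27.8% (at least 5 reads in a cell) to 32.8% (thinned) in eLCs, all within the counting intervals of the main shares. The ratio of Ticam1 stayed above 0 under 9 of 9 alternatives, from 0.83 to 3.01. The Tlr2 ratio kept its sign under 4 of 9 and stayed between -0.74 and 0.10, and Myd88 kept its sign under 8 of 9, turning in plate 1 alone. TMM factors raised every ratio by 0.10, which turned the sign of Tlr2 and of no other member. Tlr3, Tlr7 and Tlr13 gave no ratio, and Tlr1 and Tlr4 gave none in plate 2. Seurat's LogNormalize scale takes the mean of logarithms over cells of equal weight. The mean difference there was -0.05 for Cd14, 0.06 for Ticam1, -0.02 for Tlr2 and -0.0043 for Myd88. Cd14 and Myd88 thus turned on that scale too. When cells were weighted equally in the log2 ratio of CPM, it was 0.37 for Cd14 and 0.17 for Myd88. Ticam1 had 1.38 there and Tlr2 0.01, and of these only Tlr2 changed sign from the main ratio. Leaving out single cells within a plate, or the cell with the most reads of a gene, was also chosen after seeing the data. No paired analysis was possible because no result comes from a test and the labels give cells, not animals. With 1 sample per origin the spread between mice is unknown.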

Other observations

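Sensors of other families were set beside the TLRs. The C-type lectin gene Clec7a, which encodes the β-glucan receptor Dectin-1, was read in 84.5% of moLCs at 1402 CPM and in 91.1% of eLCs at 1637 CPM, far more widely than any Tlr gene. Nlrp3, which encodes an inflammasome sensor, was read in 73.8% of moLCs at 88.3 CPM and in 78.5% of eLCs at 96.9 CPM. The log2 ratio of Nlrp3 was -0.14 within plate 1 and 0.03 within plate 2. Of the 11 genes of this list, 6 were read widely enough for the size rule, against 14.3% of all listed genes. Of these 0 met it, against 2.02% of all genes examined.

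Of the same list, 3 genes of cytosolic sensors of nucleic acids were picked after their values were seen, and each was read in few cells. Ifih1, which encodes the RNA sensor MDA5, reached 9.77 CPM in 17 moLCs against 1.34 CPM in 8 eLCs, with a log2 ratio of 2.87, and 3.66 within plate 1 and 2.50 within plate 2. On plate 2 a single moLC held 79.6% of the Ifih1 reads of moLCs, and without it the ratio there was 0.25. Ddx58, the gene of the RNA sensor RIG-I, reached 10.6 CPM in 9 moLCs against 2.17 CPM in 4 eLCs, with a log2 ratio of 2.29, and 2.81 and 1.47 within the plates. On plate 2 a single moLC held 87.6% of the Ddx58 reads of moLCs, and without it the ratio there was -1.49. The DNA sensor gene Cgas reached 5.16 CPM in 10 moLCs against 0.918 CPM in 6 eLCs, with a log2 ratio of 2.49, and 6.41 and 1.40 within the plates, the latter 0.10 without 1 moLC. The plate 2 values of all 3 genes thus rested on single cells. Over both plates, the lowest ratios with each cell left out in turn were 2.42 for Ifih1, 1.79 for Ddx58 and 2.13 for Cgas. These genes were read in under 25% of the cells of either origin, so the size rule did not apply, and no test between origins was possible.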
